A study of Mus musculus with 12 samples.

Results

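The 46 genes described here encode proteins that license and copy DNA, supply deoxynucleotides, drive the G1/S transition, carry cells through mitosis or inhibit cyclin-dependent kinases. They were taken by gene symbol, with no measured value in the rule, and are 46 of the 54532 genes in the count files. All 46 were abundant enough to be tested, among 14324 tested genes.

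The RNA came from bone marrow monocytes of mice, sorted as CD11b-positive cells with a high level of Ly6C, the surface profile of classical inflammatory monocytes. The mice had received 300 mM succinate, an intermediate of the tricarboxylic acid cycle, for 7 days or no succinate, and the sorted cells were then cultured with or without LPS (lipopolysaccharide, a component of the bacterial outer membrane sensed by Toll-like receptor 4). The 4 groups, of 3 libraries each, were succinate mice with 4 h of LPS, control mice with 4 h of LPS, succinate mice with unstimulated cells, and control mice with unstimulated cells. The strain, sex and age of the mice, the LPS dose and the culture time of unstimulated cells are not given by the labels. Since the labels do not tie libraries to animals, p-values reflect the spread among 3 libraries per group, part or all of which may be technical.

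Cells entering a division cycle first load the Mcm helicase onto replication origins with the help of Cdc6 and Cdt1. Cyclin D with Cdk4 or Cdk6 and cyclin E with Cdk2 then relieve the block on E2F transcription factors, which switch on replication and nucleotide genes, and the cyclin B kinase Cdk1 later drives mitosis under control of the spindle checkpoint. In bone marrow, monocyte precursors divide and mature monocytes largely do not, so the RNA of a sorted population holds these transcripts according to how many of its cells are cycling and how much each cell makes. In bulk RNA, fewer cells of a kind and less RNA per cell cannot be told apart.

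Levels are CPM, counts per 1e6 of a library size corrected by trimmed means of M values. Changes are log2 fold changes ± SE from edgeR's quasi-likelihood test, and a gene was called where its p, adjusted over all tested genes by Benjamini and Hochberg's method, was below 0.05. Total counts per library lay between 15975882 and 18306747. The members together held 0.493% to 0.687% of the counts of a library, and their median level over the 12 libraries was 96.7 CPM, against 17.7 CPM for all tested genes. Per kilobase of exon, the replication clamp Pcna stood highest (105 CPM per kb), followed by the proliferation marker Mki67 (97.8 CPM per kb) and the kinase inhibitor Cdkn1a (89.2 CPM per kb), and cyclin D1 (Ccnd1) stood lowest (0.13 CPM per kb, 125 counts over all libraries). The markers of Ly6C-high monocytes were all present, with a summed level of 4931 to 5493 CPM in succinate mice and 5508 to 6320 CPM in control mice with LPS, and of 4510 to 5247 CPM and 5662 to 6254 CPM in unstimulated cells of the same mice. The sum hides opposite moves with LPS in both kinds of mice, where 1 of the 9 markers rose and 4 fell. Ly6c2 rose (1.16 ± 0.16 in succinate mice and 1.06 ± 0.16 in control mice), and F13a1 (-1.88 ± 0.23 and -1.76 ± 0.23), Fn1 (-1.61 ± 0.28 and -1.25 ± 0.28) and Ccr2 (-1.34 ± 0.31 and -1.24 ± 0.31) were among those that fell.

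Markers of other marrow cells varied too. The 7 neutrophil markers, all detected, summed to 7420 to 7765 CPM in succinate mice with LPS against 4144 to 5320 CPM without it, and to 7088 to 9935 CPM in control mice with LPS against 4453 to 7228 CPM without it. Most of that sum was the granule genes Ngp, Camp and Ltf, while the surface marker Ly6g lay between 2.06 and 8.33 CPM. The 8 myeloid progenitor markers, all detected, summed to 3875 to 4665 CPM in succinate mice with LPS against 2491 to 4080 CPM without it, and to 2193 to 4853 CPM in control mice with LPS against 2663 to 3641 CPM without it. In succinate mice LPS raised 2 and lowered 1 of the neutrophil markers and raised 4 progenitor markers. In control mice it raised 3 and lowered 1 of the neutrophil markers and raised 2 progenitor markers. No marker of the other lists was without a count over the 12 libraries. Their sums over all libraries were 5.09 to 19 CPM for B lineage cells, 3.91 to 56.7 CPM for erythroid cells and 17.7 to 41.1 CPM for T and NK cells. Nearly all of the T and NK sum was Nkg7 (17.6 to 40.5 CPM), which rose with LPS in succinate mice (0.83 ± 0.18). Cd3e, Cd3g, Klrb1c and Ncr1 each reached at most 0.411 CPM in any library. The dendritic cell sum was 40.4 to 50.6 CPM in succinate mice with LPS against 23.7 to 32.1 CPM without it, and 52.5 to 59.2 CPM in control mice with LPS against 23.9 to 28.4 CPM without it. Of its 5 markers, Siglech rose in succinate mice (1.59 ± 0.51) and Xcr1 (2.49 ± 0.49), Bst2 (0.75 ± 0.22) and Ccr9 (0.97 ± 0.25) in control mice. Each of these markers also had a higher mean with LPS in the other kind of mice, without a call. The other marker, Cd209a, was called in neither and had lower means with LPS. These were 0.223 against 0.809 CPM in succinate mice and 0.359 against 0.613 CPM in control mice. Bst2, at 14.3 to 36.9 CPM over all libraries, was the largest part of the sum. No marker of any list had an LPS effect called as different between succinate and control mice. The part of all these markers in the results on the members was not tested.

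One library stood apart for these genes. Replicate 1 of control mice with LPS was the lowest of its 3 in 41 of the 46 members (89.1%), against 32.5% of all tested genes, and in 11 of 11 replication genes, 3 of 3 nucleotide genes and 19 of 19 mitosis genes. It also had the lowest progenitor marker sum of its group, 2193 CPM, against 3161 and 4853 CPM in replicates 2 and 3. The main results that rest on it, including the counts and medians of each gene list and of groups that do not overlap, are given with and without it. Another division, known from earlier work on these counts, parts the libraries by the level of 5 other genes into a class of 5 (replicate 3 of control mice with LPS and replicates 2 and 3 of both unstimulated groups) and a class of 7. Within the class of 7, an LPS effect compares 3 libraries with 1 in succinate mice and 2 with 1 in control mice.

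**Figure D1:**
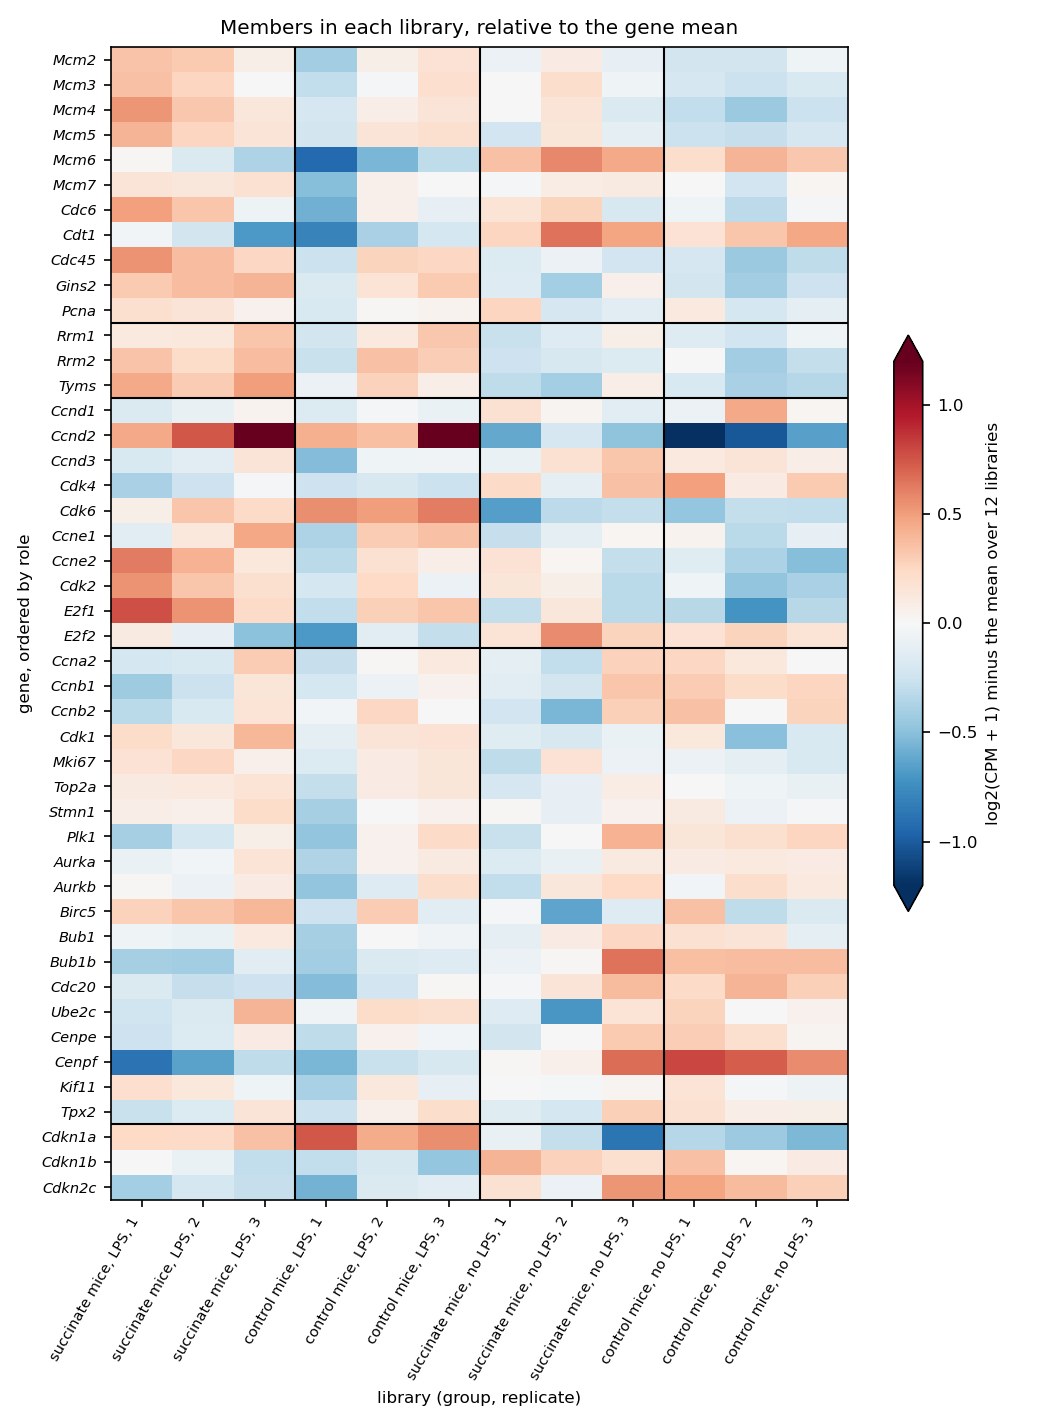
Log2(CPM + 1) of each of the 46 members (rows, ordered by role) in each of the 12 libraries (columns, by group and replicate), minus the gene's mean over the 12 libraries. Replicate 1 of control mice with LPS is the bluest of the LPS columns, lowest of its group in 41 of 46 members, and Mcm6, Cdt1 and Cenpf are lower in the LPS libraries on the left than in the unstimulated ones on the right.

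LPS moved the members in both directions. In succinate mice 10 members rose and 9 fell, 41.3% of the 46. Of all tested genes, 30.2% were called, with 14.1% higher and 16.2% lower. In control mice 6 members rose and 9 fell, 32.6% of the 46, against 30.1% of all tested genes (15.3% higher and 14.8% lower). The share of members was above that of all genes in succinate mice and near it in control mice, and the difference was not tested. The median log2 fold change of the members was 0.14 in succinate mice and -0.06 in control mice, against -0.02 and 0.00 for all tested genes. Without replicate 1 of control mice with LPS, the control median was 0.12, with 12 members higher and 7 lower. The 3 LPS libraries all lay above the 3 unstimulated ones for 16 members in succinate mice (34.8%, against 19.9% of all tested genes) and 7 in control mice (15.2%, against 22.3%). They all lay below for 8 members in succinate mice (17.4%, against 21.5%) and 11 in control mice (23.9%, against 23.2%). Leaving out replicate 1 of control mice with LPS, 20 members in control mice lay all above (43.5%, against 27.6% of all tested genes) and 11 all below (23.9%, against 25.1%), now comparing 2 LPS libraries with 3. The rule for calls then took 41.3% of the 46 members in control mice, against 24.3% of all tested genes. In succinate mice it took 47.8% of the members, against 28.9%.

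The LPS effects in the 2 kinds of mice share no library. All 15 members called in control mice were called in the same direction in succinate mice, where they were 78.9% of the calls. Over all tested genes, 3316 were called in both in the same direction, 77.0% of the calls in control mice and 76.6% of those in succinate mice. The 6 that rose in both were Cdc45, Tyms, Ccnd2, Cdk6, E2f1 and Cdkn1a. The 9 that fell in both were Mcm6, Cdt1, Cdk4, E2f2, Bub1b, Cdc20, Cenpf, Cdkn1b and Cdkn2c. Gins2, Rrm2, Cdk1 and Birc5 were called in succinate mice and not in control mice, but no member's LPS effect differed between the mice in the interaction test (adjusted p of 1 for each of the 4). Within the class of 7 libraries, a lone unstimulated library is assumed to vary like the other groups. Of the 34 called LPS effects of single members, 0 reversed there. Fewer members were called in both kinds of mice, and so were fewer of all tested genes.

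**Figure D2:**
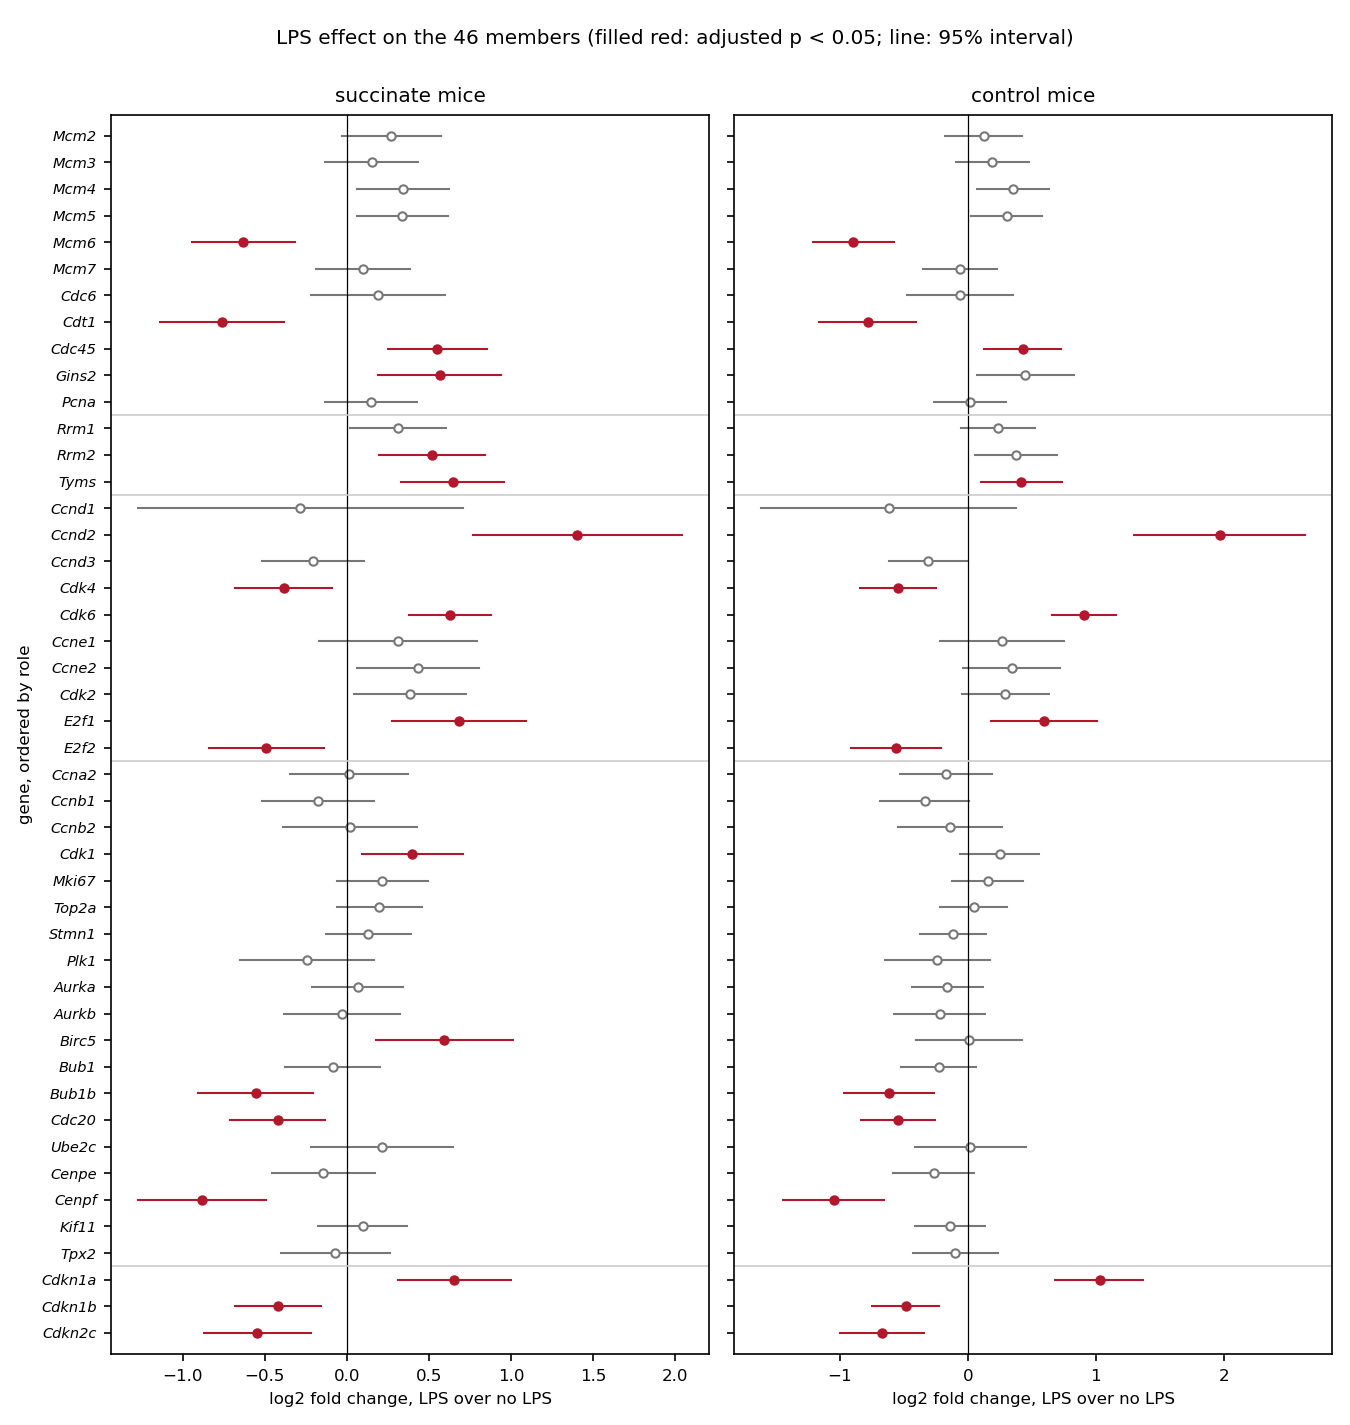
Log2 fold change of each member with LPS over no LPS, in succinate mice (left) and control mice (right), with 95% intervals; red filled points passed an adjusted p of 0.05 and open grey points did not. Ccnd2 has the largest rise in both panels (1.40 and 1.97) and Cenpf the largest called fall (-0.88 and -1.04).

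Of the 11 genes of origin licensing and the replication fork, Cdc45 and Gins2 rose and Mcm6 and Cdt1 fell in succinate mice, and Cdc45 rose and Mcm6 and Cdt1 fell in control mice. Mcm2 to Mcm7 encode the 6 subunits of one helicase ring, and Mcm6 was the only one of them called in either LPS effect. Mcm6 (chromosome 1, 128331590 to 128359664, GRCm38) had 209, 184 and 160.5 CPM in succinate mice with LPS, against 264, 309 and 284 CPM without it. In control mice it had 108, 141.5 and 168 CPM with LPS, against 241, 275 and 260.2 CPM without it. All LPS libraries lay below all unstimulated ones, replicate 1 of control mice lowest. The fall was -0.63 ± 0.15, adjusted p = 0.00425 in succinate mice and -0.89 ± 0.15, adjusted p = 0.000273 in control mice, and -0.71, adjusted p = 0.00150 without that library.

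Cdt1, which loads the helicase (chromosome 8, 122568015 to 122573554), had 126, 111 and 79.96 CPM in succinate mice with LPS, against 155, 203 and 179.5 CPM without it. Control mice had 73.6, 98.4 and 111 CPM with LPS, against 145, 162 and 178 CPM without it. Here too the LPS libraries lay below the unstimulated ones in both kinds of mice (-0.76 ± 0.18, adjusted p = 0.00399 and -0.78 ± 0.18, adjusted p = 0.00345). Without replicate 1 of control mice with LPS the control value was -0.60, adjusted p = 0.0247. Cdc45, which joins the helicase when it is activated (chromosome 16, 18780447 to 18811987), went the other way, with 86.4, 76.8 and 70.2 CPM in succinate mice with LPS, against 52.8, 56.3 and 50.2 CPM without it. Control mice had 49.2, 71.6 and 70.6 CPM with LPS, against 51.4, 43.2 and 47.6 CPM without it. The succinate groups did not overlap, and in control mice replicate 1 with LPS fell among the unstimulated libraries. The rises were 0.55 ± 0.14, adjusted p = 0.00780 in succinate mice and 0.43 ± 0.14, adjusted p = 0.0324 in control mice, where the call was lost without any 1 of replicates 2 and 3 of control mice with LPS or replicates 2 and 3 of control mice without LPS and in 2 of the 10 other settings (adjusted p up to 0.568 over the 22 alternatives) and the value was 0.62, adjusted p = 0.00181 without replicate 1 with LPS.

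Gins2, a subunit of the active helicase (chromosome 8, 120578633 to 120589304), had 13.1, 13.6 and 13.9 CPM in succinate mice with LPS, against 9.16, 7.53 and 10.8 CPM without it. The control libraries held 9.02, 11.6 and 13.01 CPM with LPS, against 8.68, 7.45 and 8.49 CPM without it. Its groups did not overlap in either kind of mouse, and it passed in succinate mice (0.56 ± 0.17, adjusted p = 0.0237) and missed the threshold in control mice (adjusted p = 0.0704). The call in succinate mice was lost without any 1 of replicates 2 and 3 of succinate mice with LPS or replicate 2 of succinate mice without LPS and within the class of 7, with an adjusted p up to 0.126. The counts of Gins2 are uncertain, since 67.3% of its exonic bases are shared with exons of Gse1 on the other strand and the handling of strand is not given. Pcna, the most abundant of these genes (chromosome 2, 132249162 to 132253314), had 286, 279 and 259 CPM in succinate mice with LPS and 299.7, 217 and 228 CPM without it. Control mice had 219.6, 252 and 257 CPM with LPS and 271, 216 and 232 CPM without it, and the groups overlapped in both (adjusted p = 0.446 and 0.931).

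The 7 uncalled members of this role in succinate mice were Mcm2, Mcm3, Mcm4, Mcm5, Mcm7, Cdc6 and Pcna. Their log2 fold changes lay between 0.10 and 0.34, with Mcm5 (adjusted p = 0.0633) and Mcm4 (adjusted p = 0.0642) nearest to the threshold, which both passed in DESeq2. The 8 uncalled in control mice lay between -0.06 and 0.45, with Mcm4 nearest (adjusted p = 0.0569). Without replicate 1 of control mice with LPS, Mcm4 (0.49, adjusted p = 0.0169), Mcm5 (0.45, adjusted p = 0.0163) and Gins2 (0.62, adjusted p = 0.0242) were called higher in control mice.

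The promoters of Mcm6 and Mcm5 are shown because, of these subunits of one ring, Mcm6 fell in both kinds of mice and Mcm5 was called in neither. Each window runs from 250 bases before to 50 bases after the gene's RefSeq start (GRCm38.p6), 5′ to 3′ on the gene's strand, at chr1:128359656-128359955 (minus strand) for Mcm6 and chr8:75109259-75109558 (plus strand) for Mcm5. Capitals mark matches on either strand to the E2F letters TTTCCCGC, TTTCGCGC, TTTGCCGC or TTTGGCGC, or to the letters TTTGAA or TTCGAA of the cell cycle homology region (CHR), the element of late cell cycle promoters.
Mcm6: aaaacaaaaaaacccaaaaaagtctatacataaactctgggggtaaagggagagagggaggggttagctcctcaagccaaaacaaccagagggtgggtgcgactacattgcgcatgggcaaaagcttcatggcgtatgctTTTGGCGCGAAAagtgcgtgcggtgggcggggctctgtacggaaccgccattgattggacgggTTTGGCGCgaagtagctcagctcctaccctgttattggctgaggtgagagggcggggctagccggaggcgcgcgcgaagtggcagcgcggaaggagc
Mcm5: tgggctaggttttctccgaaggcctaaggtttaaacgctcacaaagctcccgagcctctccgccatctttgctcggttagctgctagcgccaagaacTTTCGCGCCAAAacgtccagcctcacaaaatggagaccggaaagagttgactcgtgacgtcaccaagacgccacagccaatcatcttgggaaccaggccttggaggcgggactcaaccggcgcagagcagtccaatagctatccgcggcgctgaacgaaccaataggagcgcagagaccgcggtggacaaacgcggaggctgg
Both windows hold E2F matches in capitals, Mcm6 with 3 and Mcm5 with 2, and matches on opposite strands overlap in the longer run of each. Neither holds a CHR match. E2F letters were found in 6 of the 9 licensing and fork genes with a window (66.7%), in 9 of the 37 members with a window (24.3%), and in 2.6% of all genes with one. The matches are a description of the letters and were not tied to the counts.

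Of the 3 genes of deoxynucleotide supply, Tyms and Rrm2 rose with LPS in succinate mice and Tyms in control mice. Tyms, which makes thymidylate (chromosome 5, 30058202 to 30073617), had 34.4, 30.9 and 35.6 CPM in succinate mice with LPS, against 19.8, 18.4 and 26.2 CPM without it. Its level in control mice was 23.5, 30.1 and 26.3 CPM with LPS, against 21.7, 18.7 and 19.3 CPM without it. The groups did not overlap in either, and it rose in both (0.64 ± 0.15, adjusted p = 0.00361 in succinate mice and 0.42 ± 0.15, adjusted p = 0.0450 in control mice). The control call was lost without any 1 of replicates 1, 2 and 3 of succinate mice with LPS, replicates 2 and 3 of control mice with LPS or replicates 1, 2 and 3 of control mice without LPS and in 5 of the 10 other settings, with an adjusted p up to 0.358. Rrm2, the inducible subunit of ribonucleotide reductase (chromosome 12, 24708241 to 24714146), had 153, 140.3 and 156 CPM in succinate mice with LPS, against 101, 105 and 107 CPM without it, with no overlap, and rose (0.52 ± 0.15, adjusted p = 0.0167). With LPS, control mice had 99.9, 155 and 148 CPM, against 121, 90.1 and 98.8 CPM without it, and missed the threshold (adjusted p = 0.0733), which it passed without replicate 1 with LPS (0.58, adjusted p = 0.00340). Rrm1, the large subunit (chromosome 7, 102441695 to 102469771), had 173, 174.5 and 202 CPM in succinate mice with LPS and 132, 143 and 167 CPM without it (adjusted p = 0.103). Control mice had 137, 173 and 199 CPM with LPS and 143, 136 and 154 CPM without it (adjusted p = 0.222), with replicate 1 with LPS among the unstimulated values and a call without that library (0.40, adjusted p = 0.0390).

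In a list of 42 other replication genes 9 rose and 2 fell in succinate mice, and 5 rose and 2 fell in control mice. These were 26.2% and 16.7% of the list, below the 30.2% and 30.1% of all tested genes. The median of the list was 0.22 in succinate mice and 0.17 in control mice. In control mice without replicate 1 with LPS, 8 rose and 2 fell (23.8%), with a median of 0.22. Rfc3, a subunit of the clamp loader, rose to 29.18 ± 1.53 CPM with LPS, against 18.02 ± 2.33 CPM without it in succinate mice, and to 22.53 ± 1.94 against 16.69 ± 2.13 CPM in control mice (SD, n = 3 each). Its partner Rfc2 fell to 44.89 ± 4.91 CPM with LPS, against 61.22 ± 13.5 CPM in succinate mice, and to 41.57 ± 2.20 against 68.68 ± 7.47 CPM in control mice. Dut, which removes dUTP, rose in succinate mice (0.62 ± 0.15) and had a value of 0.22 ± 0.15 in control mice (adjusted p = 0.294), with no difference called between the mice (interaction adjusted p of 1). Rpa2, a subunit of the single-strand binding protein, rose in both (0.68 ± 0.17 in succinate mice and 0.53 ± 0.17 in control mice).

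Of the 10 G1/S genes, Ccnd2, Cdk6 and E2f1 rose and Cdk4 and E2f2 fell with LPS in both kinds of mice, so that Cdk6 and Cdk4, and E2f1 and E2f2, went in opposite directions. Ccnd2, cyclin D2 (chromosome 6, 127125162 to 127152193), had 13.1, 16.4 and 23.8 CPM in succinate mice with LPS, against 5.76, 7.995 and 6.37 CPM without it. In control mice it had 12.9, 12.3 and 22.8 CPM with LPS, against 2.66, 4.09 and 5.55 CPM without it. The LPS libraries lay above the unstimulated ones in both, with replicate 3 highest in each LPS group. The rise was 1.40 ± 0.30, adjusted p = 0.00213 in succinate mice and 1.97 ± 0.31, adjusted p = 0.000180 in control mice, the largest among the members and a call in each of the 22 alternatives. Its level was low per length, 1.18 CPM per kb.

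Cdk6 and Cdk4 are alternative kinase partners of the D cyclins. Cdk6 (chromosome 5, 3341485 to 3531008) had 286, 343 and 319 CPM in succinate mice with LPS, against 172, 219 and 223 CPM without it. Control mice had 401, 386 and 417.5 CPM with LPS, against 197, 223 and 222 CPM without it. The groups stood well apart and the call held in each of the 22 alternatives (0.63 ± 0.12, adjusted p = 0.000806 in succinate mice and 0.91 ± 0.12, adjusted p = 2.70e-05 in control mice). Cdk4 (chromosome 10, 127063534 to 127067920) had 69.3, 76.4 and 89.2 CPM in succinate mice with LPS, against 107, 84.04 and 116 CPM without it. The control libraries held 76.3, 79.2 and 75.8 CPM with LPS, against 128, 97.1 and 113 CPM without it. The groups overlapped in succinate mice and not in control mice, where the fall was -0.55 ± 0.14, adjusted p = 0.00741 and held in each of the 22 alternatives. In succinate mice the fall was -0.39 ± 0.14, adjusted p = 0.0476, close to the threshold. It was lost without any 1 of replicates 1 and 2 of succinate mice with LPS, replicates 1, 2 and 3 of control mice with LPS, replicates 1 and 3 of succinate mice without LPS or replicates 2 and 3 of control mice without LPS and in 6 of the 10 other settings, with an adjusted p up to 0.172. Cdk4 shares 19.7% of its exonic bases with Tspan31 on the other strand.

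E2f1 and E2f2 are activating members of the E2F family. E2f1 (chromosome 2, 154559407 to 154569892) had 96.2, 81.98 and 65.6 CPM in succinate mice with LPS, against 45.6, 61.6 and 44.5 CPM without it. Its level in control mice was 45.3, 68.6 and 70.8 CPM with LPS, against 44.3, 33.8 and 44.1 CPM without it. The groups did not overlap, and E2f1 rose in succinate mice (0.68 ± 0.19, adjusted p = 0.0136) and in control mice (0.60 ± 0.19, adjusted p = 0.0293). The call in succinate mice was lost without any 1 of replicate 1 of succinate mice with LPS or replicate 3 of succinate mice without LPS and within the class of 7 (adjusted p up to 0.0819). The call in control mice was lost without any 1 of replicates 2 and 3 of control mice with LPS or replicate 2 of control mice without LPS and in 2 of the 10 other settings (adjusted p up to 0.468). E2f2 (chromosome 4, 136172394 to 136196057) had 164, 142 and 108 CPM in succinate mice with LPS, against 171, 227 and 184 CPM without it. With LPS, control mice had 94.4, 138 and 125 CPM, against 172, 184 and 171 CPM without it. All LPS libraries lay below the unstimulated ones of the same mice. The fall in succinate mice was -0.49 ± 0.17, adjusted p = 0.0355, lost without any 1 of replicates 2 and 3 of succinate mice with LPS, replicate 3 of control mice with LPS, replicate 2 of succinate mice without LPS or replicates 2 and 3 of control mice without LPS and in 3 other settings (adjusted p up to 0.551). The fall in control mice was -0.56 ± 0.17, adjusted p = 0.0183, lost without any 1 of replicate 1 of control mice with LPS or replicates 2 and 3 of control mice without LPS and within the class of 7 (adjusted p up to 0.266).

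The other G1/S members were the cyclins Ccnd1, Ccnd3, Ccne1 and Ccne2 and the kinase Cdk2. None was called in either LPS effect, with Ccne2 nearest in succinate mice (adjusted p = 0.0766) and Ccnd3 in control mice (adjusted p = 0.129). Without replicate 1 of control mice with LPS, Ccne2 was called higher in control mice (0.52, adjusted p = 0.0497). Ccne2 shares 17.4% and Ccnd1 23.4% of their exonic bases with genes on the other strand. Of 27 other G1/S regulators 26 were tested, and 8 rose and 2 fell in succinate mice and 8 rose and 3 fell in control mice (38.5% and 42.3%, against 30.2% and 30.1% of all tested genes). The medians were 0.22 and 0.21, and without replicate 1 of control mice with LPS 8 rose and 2 fell in control mice (38.5%), with a median of 0.24. The growth factor-response gene Myc rose to 30.14 ± 15.5 CPM with LPS, against 5.05 ± 1.25 CPM in succinate mice (2.57 ± 0.37), and to 24.52 ± 11.2 CPM with LPS, against 6.24 ± 0.922 CPM in control mice (1.97 ± 0.36). Its antagonist Mxd1 rose in both, by 1.26 ± 0.14 in succinate mice and 1.46 ± 0.14 in control mice, and so did E2f5, by 1.46 ± 0.24 in succinate mice and 1.93 ± 0.24 in control mice, where it had 14.36 ± 0.900 CPM with LPS, against 3.76 ± 0.879 CPM without it. Fbxw7, a ubiquitin ligase subunit that marks cyclin E and Myc for degradation, fell in both (-1.02 ± 0.14 and -0.84 ± 0.14), and so did the retinoblastoma gene Rb1 (-0.28 ± 0.10 and -0.41 ± 0.10). The call of Rb1 in succinate mice was made in 4 of the 22 alternatives.

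**Figure D3:**
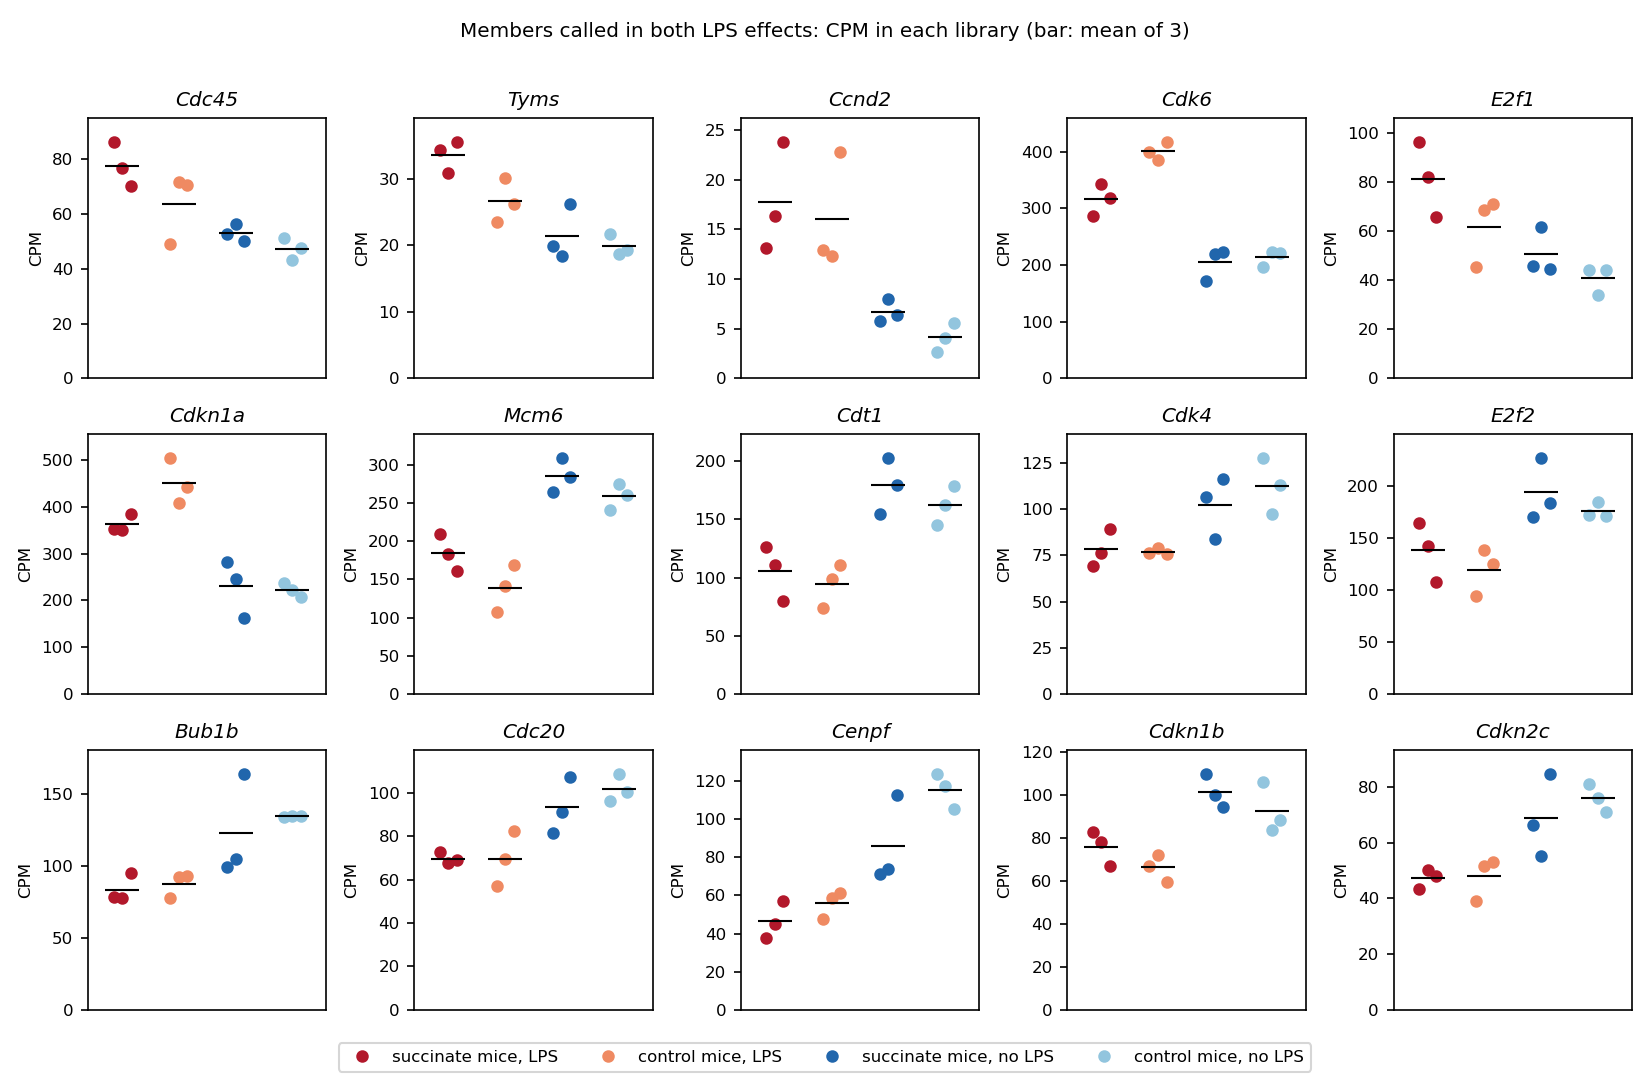
CPM in each library (points; black bar, mean of 3) of the 15 members called in both LPS effects, the 6 that rose first and then the 9 that fell, with the groups, from left to right, succinate and control mice with LPS, then unstimulated cells of succinate and control mice. Cdk6 lies between 286 and 418 CPM in the LPS libraries and between 172 and 223 CPM in the unstimulated ones, while Mcm6 lies between 108 and 209 CPM and between 241 and 309 CPM.

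Most of the 19 genes of G2 and mitosis did not pass in either LPS effect. In succinate mice Cdk1 and Birc5 rose and Bub1b, Cdc20 and Cenpf fell. In control mice the same 3 fell and 0 rose in edgeR, with 0 higher at an unadjusted p below 0.05 and 0 called higher by DESeq2 or limma-voom. Cdk1 was called higher there without replicate 1 of unstimulated control mice. The median of the role was 0.01 in succinate mice and -0.16 in control mice (-0.03 without replicate 1 of control mice with LPS). Mki67, the most abundant of them (chromosome 7, 135689784 to 135716361), had 1100, 1164 and 1018 CPM in succinate mice with LPS and 791, 1102 and 932 CPM without it. Control mice had 874, 1049 and 1078 CPM with LPS and 933, 899.6 and 863 CPM without it. Its groups overlapped in both (adjusted p = 0.231 and 0.412).

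Cenpf, a large protein of the outer kinetochore (chromosome 1, 189640606 to 189688086), had 37.8, 44.9 and 56.9 CPM in succinate mice with LPS, against 71.2, 73.7 and 113 CPM without it. In control mice it had 47.9, 58.6 and 61.5 CPM with LPS, against 124, 117 and 105 CPM without it. The LPS libraries lay below the unstimulated ones in both, and the falls were -0.88 ± 0.18, adjusted p = 0.00182 in succinate mice and -1.04 ± 0.18, adjusted p = 0.000450 in control mice (-0.91, adjusted p = 0.00468 without replicate 1 with LPS). Cdc20, the activator of the anaphase-promoting complex (chromosome 4, 118432901 to 118437352), had 72.6, 67.5 and 68.9 CPM in succinate mice with LPS, against 81.4, 91.3 and 107 CPM without it. Control mice had 56.9, 69.6 and 82.6 CPM with LPS, against 96.04, 109 and 100.2 CPM without it. The groups did not overlap. The fall in control mice (-0.55 ± 0.14, adjusted p = 0.00661) held in each of the 22 alternatives. It was weakest, and barely within the threshold, without replicate 1 of control mice with LPS (-0.39, adjusted p = 0.0499). The fall in succinate mice (-0.42 ± 0.14, adjusted p = 0.0285) was lost without any 1 of replicates 1, 2 and 3 of succinate mice with LPS, replicate 2 of control mice with LPS, replicates 2 and 3 of succinate mice without LPS or replicates 2 and 3 of control mice without LPS and in 3 other settings, with an adjusted p up to 0.448.

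Bub1b, the checkpoint protein that restrains Cdc20 (chromosome 2, 118598211 to 118641591), had 78.5, 77.5 and 94.9 CPM in succinate mice with LPS, against 99.04, 105 and 164 CPM without it. The control libraries held 77.8, 92.2 and 93.2 CPM with LPS, against 134, 135 and 135 CPM without it. The LPS libraries lay below the unstimulated ones, and replicate 3 of unstimulated succinate mice stood well above its group. The fall in succinate mice was -0.56 ± 0.16, adjusted p = 0.0185, lost without any 1 of replicates 1 and 2 of succinate mice with LPS or replicate 3 of succinate mice without LPS and in 3 other settings (adjusted p up to 0.452). In control mice the fall was -0.62 ± 0.16, adjusted p = 0.0100, and without replicate 1 of control mice with LPS it was lost (-0.51, adjusted p = 0.0641).

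Cdk1, the kinase that drives entry into mitosis (chromosome 10, 69335146 to 69352938), had 81.4, 76.3 and 91.9 CPM in succinate mice with LPS, against 62.8, 60.8 and 65.9 CPM without it. Its level in control mice was 64.4, 77.7 and 78.7 CPM with LPS, against 75.8, 48.98 and 61.03 CPM without it. The succinate groups did not overlap and the control groups did. The rise in succinate mice, 0.40 ± 0.14, adjusted p = 0.0486, was close to the threshold. It was lost without any 1 of replicates 1, 2 and 3 of succinate mice with LPS, replicates 1, 2 and 3 of succinate mice without LPS or replicate 3 of control mice without LPS and in 2 other settings (adjusted p up to 0.167). Birc5, survivin of the chromosomal passenger complex (chromosome 11, 117849251 to 117855743), had 67.2, 69.9 and 73.1 CPM in succinate mice with LPS, against 54.4, 35.2 and 49.6 CPM without it. With LPS, control mice had 46.2, 68.6 and 50.1 CPM, against 70.5, 44.4 and 48.9 CPM without it. The succinate groups did not overlap (0.59 ± 0.19, adjusted p = 0.0309), and the control groups overlapped (0.01 ± 0.19, adjusted p = 0.979). The call in succinate mice was lost without any 1 of replicates 1, 2 and 3 of succinate mice with LPS or replicate 2 of succinate mice without LPS and in 2 other settings (adjusted p up to 0.282).

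The uncalled mitosis members were cyclins (Ccna2, Ccnb1, Ccnb2), the kinases Plk1, Aurka, Aurkb and Bub1, the motors and spindle proteins Cenpe, Kif11, Tpx2 and Stmn1, the ubiquitin-conjugating enzyme Ube2c, the topoisomerase Top2a and Mki67. The 14 in succinate mice lay between -0.24 and 0.22, with adjusted p of 0.231 or more, and the 16 uncalled in control mice lay between -0.34 and 0.25, with adjusted p of 0.136 or more. Ccna2 shares 12.5% and Ube2c 22.8% of their exonic bases with genes on the other strand. Processed pseudogenes of Ccnb1 and Ccnb2 held 248 and 183 counts, against 20990 and 10408 for the genes themselves.

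The promoters of Cenpf and Cdc20, both among the 3 mitosis genes that fell in both kinds of mice, are shown in the same way, at chr1:189688037-189688336 (minus strand) for Cenpf and chr4:118437294-118437593 (minus strand) for Cdc20.
Cenpf: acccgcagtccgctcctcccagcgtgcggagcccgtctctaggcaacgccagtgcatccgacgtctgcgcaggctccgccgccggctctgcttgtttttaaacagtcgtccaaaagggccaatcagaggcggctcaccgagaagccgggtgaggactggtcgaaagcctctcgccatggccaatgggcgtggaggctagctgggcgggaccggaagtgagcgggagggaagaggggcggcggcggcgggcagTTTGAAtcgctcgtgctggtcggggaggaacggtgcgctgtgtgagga
Cdc20: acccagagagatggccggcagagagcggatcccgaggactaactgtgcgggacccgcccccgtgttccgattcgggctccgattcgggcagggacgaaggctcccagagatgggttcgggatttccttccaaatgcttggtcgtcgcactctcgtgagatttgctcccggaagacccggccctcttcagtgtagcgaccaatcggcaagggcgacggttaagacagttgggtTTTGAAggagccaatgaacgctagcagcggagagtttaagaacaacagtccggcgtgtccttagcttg
Each window holds 1 CHR match in capitals, 18 bases before the start in Cdc20 and just after it in Cenpf, and no E2F match. The window of Bub1b, the other mitosis gene that fell in both, holds 2 CHR matches and no E2F match. CHR letters were found in 12 of the 15 mitosis genes with a window (80.0%), against 21.7% of all genes with one, and the CCAAT box, searched as CCAAT on either strand, in 14 of the 15 (93.3%), against 41.1% of all genes. Mki67, Top2a and Cdk1, none of which was called lower, hold CHR letters as well.

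A list of 52 other mitosis genes had 8 higher and 6 lower in succinate mice and 5 higher and 15 lower in control mice (26.9% and 38.5%, against 30.2% and 30.1% of all tested genes). Its median was 0.02 in succinate mice and -0.05 in control mice. Leaving out replicate 1 of control mice with LPS gave 8 higher and 6 lower in control mice (26.9%), with a median of 0.06. Cdc25b, the phosphatase that activates Cdk1, fell the most, to 6.81 ± 0.962 CPM with LPS, against 71.80 ± 30.5 CPM without it in succinate mice (-3.40 ± 0.24), and to 8.52 ± 0.398 against 86.62 ± 6.61 CPM in control mice (-3.35 ± 0.24). Ckap2l, a spindle protein, rose to 133.0 ± 3.62 CPM with LPS, against 72.13 ± 0.526 CPM in succinate mice, and to 118.3 ± 11.9 against 76.15 ± 8.10 CPM in control mice. The checkpoint gene Mad2l1 rose in both, by 1.02 ± 0.14 in succinate mice and 0.82 ± 0.14 in control mice. Ccnf, cyclin F, fell in both (-0.50 ± 0.12 in succinate mice and -0.43 ± 0.12 in control mice), and so did Anln, the contractile ring protein anillin (-0.45 ± 0.12 and -0.54 ± 0.12).

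The 3 inhibitors were all called in both kinds of mice, Cdkn1a higher and Cdkn1b and Cdkn2c lower. Cdkn1a, which encodes p21, an inhibitor of several cyclin-dependent kinases (chromosome 17, 29090976 to 29100727), had 353.5, 351.5 and 384 CPM in succinate mice with LPS, against 283, 247 and 163 CPM without it. In control mice it had 505, 409 and 442 CPM with LPS, against 236, 222 and 206 CPM without it. The LPS libraries lay above the unstimulated ones in both. The rise was 0.65 ± 0.16, adjusted p = 0.00615 in succinate mice, lost within the class of 7 alone (adjusted p = 0.145, the highest over the alternatives), and 1.03 ± 0.16, adjusted p = 0.000171 in control mice, where it held in each of the 22 alternatives.

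Cdkn1b encodes p27, an inhibitor of the cyclin E and cyclin A kinases (chromosome 6, 134920401 to 134925513). It had 82.7, 78.1 and 67.2 CPM in succinate mice with LPS, against 110.0, 100.2 and 94.6 CPM without it. Control mice had 67.1, 72.3 and 59.6 CPM with LPS, against 106, 83.9 and 88.4 CPM without it. The groups did not overlap. The fall was -0.42 ± 0.12, adjusted p = 0.0178 in succinate mice, lost without any 1 of replicate 3 of succinate mice with LPS or replicate 1 of succinate mice without LPS and within the class of 7 (adjusted p up to 0.0797). It was -0.48 ± 0.12, adjusted p = 0.00758 in control mice, lost without replicate 3 of control mice with LPS (adjusted p up to 0.0504). Cdkn2c encodes p18, an inhibitor of Cdk4 and Cdk6 (chromosome 4, 109660876 to 109667189). It had 43.6, 50.2 and 47.9 CPM in succinate mice with LPS, against 66.4, 55.3 and 84.8 CPM without it. The control libraries held 38.96, 51.7 and 53.1 CPM with LPS, against 81.2, 75.9 and 71.1 CPM without it. The groups did not overlap, and the fall in control mice, -0.67 ± 0.15, adjusted p = 0.00389, held in each of the 22 alternatives. In succinate mice it was -0.54 ± 0.15, adjusted p = 0.0142, lost without any 1 of replicate 1 of succinate mice with LPS or replicate 3 of succinate mice without LPS and within the class of 7 (adjusted p up to 0.127).

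Cdkn1a is a classical target of p53, and 18 other p53 targets were read beside it. In succinate mice 6 rose and 4 fell and in control mice 5 rose and 3 fell (55.6% and 44.4%, against 30.2% and 30.1% of all tested genes), so the list went both ways. The medians were 0.07 and 0.10, and without replicate 1 of control mice with LPS 4 rose and 3 fell in control mice (38.9%), with a median of 0.15. The kinase gene Plk2 rose to 588.2 ± 86.1 CPM with LPS, against 59.78 ± 29.8 CPM without it in succinate mice (3.30 ± 0.31), and to 988.4 ± 179 against 63.39 ± 10.6 CPM in control mice (3.96 ± 0.32). Ddit4, an inhibitor of the growth kinase mTORC1, rose by 1.63 ± 0.20 and 1.69 ± 0.20. The apoptosis gene Bax fell to 93.80 ± 3.90 CPM with LPS, against 144.0 ± 20.4 CPM in succinate mice, and to 112.1 ± 13.1 against 146.8 ± 11.1 CPM in control mice, and the kinase gene Plk3 fell by 0.88 and 0.99 on the log2 scale.

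Succinate called no member, in cells with LPS or without it. With LPS, 0 members passed in edgeR, of 9 genes called over the whole table (0.0628% of tested genes, all lower in succinate mice), and the smallest adjusted p of a member was 0.248, for Cdk6. At an unadjusted p below 0.05 there were 7 members, Mcm4, Mcm6, Cdc6, Tyms, Cdk6, Ccne2 and Cdk2, beside 11.7% of all tested genes. DESeq2 and limma-voom also called 0 members, with 7 and 11 at an unadjusted p below 0.05. For these tools the share of all genes at that p was not recorded. Without LPS, edgeR called 0 of all genes (0% of tested genes) and 0 members, with 3 members at an unadjusted p below 0.05 (Mcm4, Ccnd2 and Cenpf), beside 3.73% of all genes. Paired by replicate number within these 6 libraries in edgeR, 1 gene was higher and 5 lower, with 0 members called. At an unadjusted p below 0.05 this paired fit had 10 members, and the share of all genes at that p was not recorded. Unpaired and fitted to all 12 libraries, DESeq2 and limma-voom called 0 members without LPS, with 3 and 2 at an unadjusted p below 0.05. Here too their share of all genes at that p was not recorded.

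With LPS, the log2 fold changes of the members, succinate over control mice, lay between -0.35 (Cdk6) and 0.48 (Cdc6). Of the 46, 34 were positive (73.9%, against 47.8% of all tested genes), with a median of 0.15 against -0.01 for all tested genes. Scaling by library size alone moved the median of all genes to 0.11 and that of the members to 0.27. All 11 licensing and fork genes were positive under both scalings. Cdc6 had 31.7, 28.2 and 21.2 CPM in succinate mice with LPS, against 14.5, 23.2 and 20.6 CPM in control mice with LPS. For Mcm4 the values were 140.4, 121 and 107 CPM in succinate mice and 84.1, 103 and 108 CPM in control mice. Both genes overlapped between the groups, and in both replicate 1 of control mice was lowest. Without that library the median of the members was 0.01 and 26 of 46 were positive. There 1 member was at an unadjusted p below 0.05, and the share of all genes at that p was not recorded. The members whose 3 libraries all lay above those of control mice were Mcm7, Gins2, Pcna, Tyms and Stmn1 (10.9%, against 6.95% of all tested genes), and those all below were Cdk6 and Cdkn1a (4.35%, against 10.2%). Without replicate 1 of control mice, Mcm7, Tyms and Stmn1 were all above (6.52%, against 10.2%) and Cdk6, Cenpf, Cdkn1a and Cdkn2c all below (8.70%, against 14.01%). Tyms had 34.4, 30.9 and 35.6 CPM in succinate mice with LPS and 23.5, 30.1 and 26.3 CPM in control mice with LPS. Cdk6 had 286, 343 and 319 CPM in succinate mice with LPS and 401, 386 and 417.5 CPM in control mice with LPS. The p for neither passed the adjustment over all genes (0.387 and 0.248).

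In unstimulated cells the range was -0.43 (Cenpf) to 0.71 (Ccnd2), and the median was 0.02, against 0.01 for all genes. The 11 licensing and fork genes were all positive here as well, with a median of 0.16, while 3 of the 19 mitosis genes were positive, with a median of -0.13. Of all tested genes, 51.3% were positive, and the signs of the roles were not tested. Members all above control mice were Mcm3, Mcm4, Ccnd2 and E2f1 (8.70%, against 3.65% of all tested genes), and 0 were all below (against 4.27%). Mcm4 had 96.8, 108 and 86.2 CPM in succinate mice and 79.03, 70.98 and 81.1 CPM in control mice, and E2f1 had 45.6, 61.6 and 44.5 CPM in succinate mice and 44.3, 33.8 and 44.1 CPM in control mice. The smallest adjusted p among the members was 0.958. At this depth and spread, the median SE of a member was 0.15, and 45 and 44 of the 46 members had 95% intervals within 1 log2 unit of 0 with and without LPS.

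**Figure D4:**
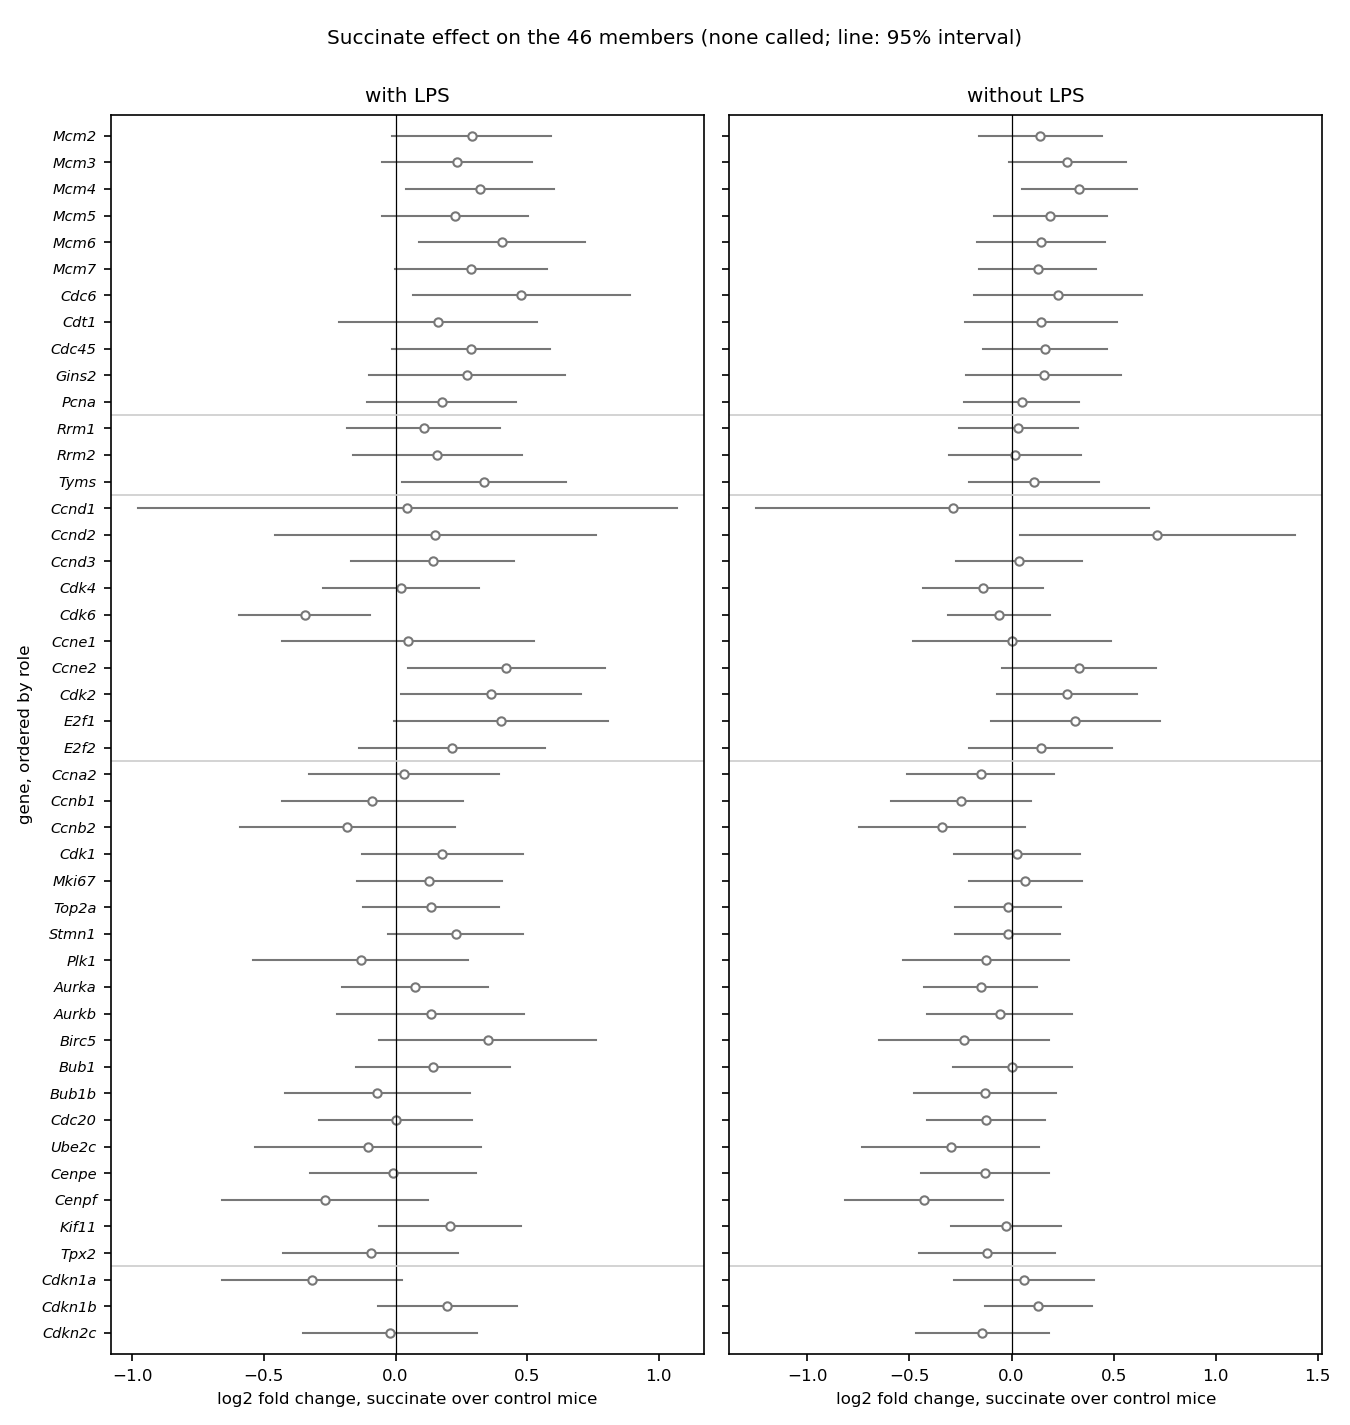
Log2 fold change of each member in succinate over control mice, with LPS (left) and without LPS (right), with 95% intervals. No point passed an adjusted p of 0.05, and the 11 licensing and fork genes at the top lie to the right of 0 in both panels.

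The interaction, the LPS effect in succinate mice minus that in control mice, called 0 of all genes (0% of tested genes) and 0 members in edgeR, with 0 members at an unadjusted p below 0.05, beside 3.91% of all genes. DESeq2 and limma-voom called 0 members there, with 1 each at an unadjusted p below 0.05 and no recorded share of all genes. Its values ran from -0.56 (Ccnd2) to 0.58 (Birc5), and 40 of 46 were positive (87.0%, against 45.9% of all tested genes). That count was 21 of 46 without replicate 1 of control mice with LPS, and the median was 0.12 with it and -0.01 without it.

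Replication and mitosis genes were also set against each other within each library, as the mean log2 CPM of the 14 replication and nucleotide genes minus that of the 19 mitosis genes. The difference depends on gene length and is read between libraries only. It was 0.26, 0.11 and -0.21 in succinate mice with LPS, against -0.09, -0.01 and -0.41 without it. In control mice it was -0.25, -0.17 and -0.14 with LPS, against -0.50, -0.51 and -0.37 without it. The succinate groups overlapped and the control groups did not, and replicate 1 of control mice with LPS, low in both kinds of gene, fell beside its group on this measure. Replicate 3 was lowest in both succinate groups, with 16 of 19 mitosis genes at their highest of the group in replicate 3 with LPS and 17 of 19 in replicate 3 without it. In replicate 3 with LPS, 9 of the 11 licensing and fork genes were at the lowest of the group.

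**Figure D5:**
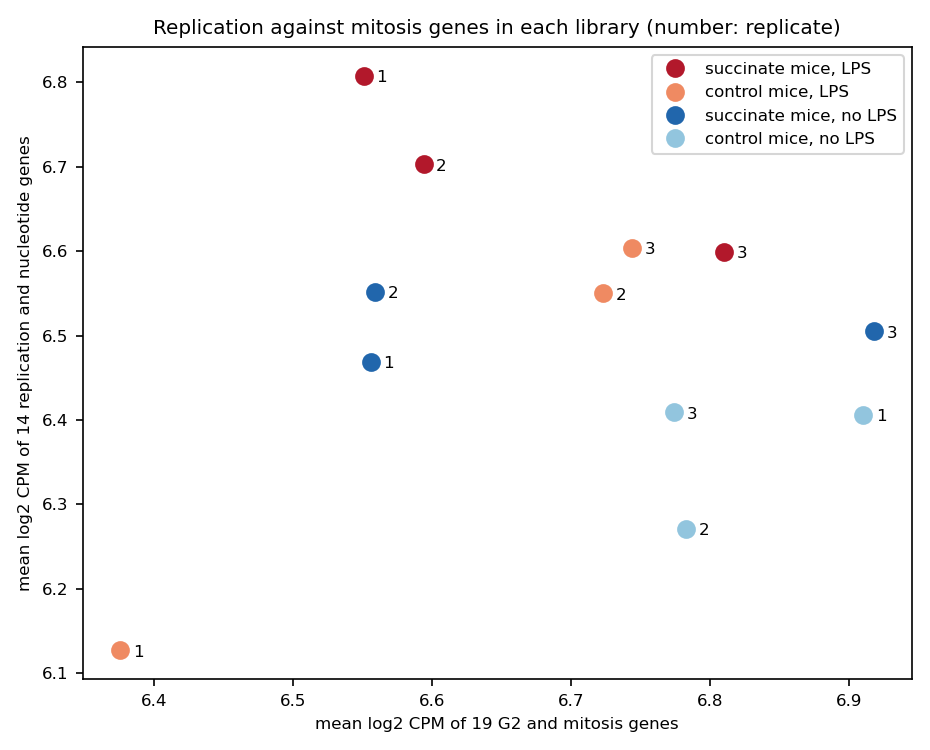
Mean log2 CPM of the 14 replication and nucleotide genes (vertical) against that of the 19 mitosis genes (horizontal) in each of the 12 libraries, numbered by replicate and coloured by group. Replicate 1 of control mice with LPS is lowest on both axes (6.13 and 6.38), and the 3 unstimulated control libraries lie at the lower right.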

How the data were processed

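Total RNA of sorted bone marrow monocytes was sequenced in 12 libraries, and the authors deposited unnormalised whole-number counts of reads per gene in a table for each library. Per the submitters' processing notes, reads went through Trim Galore and the mm10 build was used. Not given in the sources used here are the aligner, counting tool, annotation and strand setting, which leaves the counts of genes that overlap on the other strand uncertain. Each table lists 54532 genes, of which 28563 had a count. Total counts per library ranged from 15975882 to 18306747, and the median SE of a log2 fold change of a member was 0.15 for 2 groups and 0.21 for the interaction. No 2 libraries of the same group agreed within sampling noise (chi-square per degree of freedom 6.42 to 38.72), so each was kept as 1 sample.

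Groups were taken from the titles. Counts were tested with edgeR 4.0.16 in R 4.3.3, with filterByExpr (14324 genes left), trimmed means of M values and a quasi-likelihood model of 4 group means fitted to all 12 libraries, checked on simulated counts. In that check, for LPS in succinate mice, 100 genes were changed 1.5-fold and 100 were changed 2-fold, of 13993 run. Of these, 21.0% and 54.0% were called. Far more genes were called in the measured LPS effects, which makes the adjusted threshold less strict there. These rates therefore do not give the power of the LPS tests. The changed genes were drawn from all tested genes. The 5 contrasts were LPS against none in succinate and in control mice, succinate against control with and without LPS, and the interaction. Calls used a Benjamini-Hochberg adjusted p below 0.05 over all tested genes. Log2 CPM used a prior count of 2. Alternatives were DESeq2 1.42.0, limma-voom (limma 3.58.1), RLE scaling, scaling by library size only, leaving out the filter, asking for 1 CPM in 6 or more libraries (the stricter filter), only the libraries compared, a replicate block, the library class as a covariate, the class of 7 libraries alone, and each library left out in turn. The deviations of same-numbered libraries from their group means correlated above 0.1 in 7 of 18 pairs of libraries (range -0.129 to 0.377). All 3 pairs of the unstimulated groups were among these (0.116 to 0.260). The numbers, from the titles, were therefore used to pair these groups in an added alternative. Both groups have replicate 1 in the class of 7 and replicates 2 and 3 in the other class. Pairing and library class therefore cannot be told apart there.

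The 46 members, their roles, the other replication, G1/S, mitosis and p53 target lists and the marker lists were chosen with earlier results of these data known. Values in every library are given for each member called and for the most abundant member of each role. From each of the 4 other lists, up to 2 called genes per direction with the smallest p in each LPS effect are named. Among the listed genes and markers, 2 are not reported here. Coordinates and exonic lengths come from GENCODE M21 (GRCm38), in which 54409 identifiers matched. Promoter windows come from RefSeq (GRCm38.p6), in which 37 members matched, with 42 windows. Mcm4, Gins2, Ccnd1, Ccnd2, Ccne2, Ccna2, Stmn1, Aurkb and Tpx2 had none there. The E2F, CHR and CCAAT letters were searched on both strands of each window, and a gene counts once if any of its windows holds them.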

Additional observations from a re-analysis of the deposited data

How the results depend on the processing

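The 34 called LPS effects of single members were recomputed under 22 alternatives, giving 748 values, of which 642 were still called in the same direction, 106 kept their direction without passing and 0 reversed. DESeq2 and the replicate block kept all 34. Calls made in every alternative were those of Ccnd2, Cdk6 and Tyms in succinate mice and of Ccnd2, Cdc20, Cdk4, Cdk6, Cdkn1a, Cdkn2c, Cenpf and Mcm6 in control mice. Within the class of 7 libraries, 13 of the 34 were still called, in comparisons with a single unstimulated library. No alternative called a member in either succinate effect or in the interaction. The replicate number as a block in the unstimulated libraries alone was an alternative chosen after seeing the data. For succinate without LPS it gave 1 gene higher and 5 lower, with 0 members called and 10 at an unadjusted p below 0.05. The share of all genes at that p was not recorded. In the other comparisons no set of 3 same-numbered pairs was above 0.1 throughout, so the numbers were not taken to pair them. As a hint from the data, 8 of 12 libraries correlated best with their own number. In comparisons of 2 groups, depth and spread limit a typical member to an SE of 0.15 on the log2 scale. Ccnd1, with 125 counts over the 12 libraries, is limited there to an SE of up to 0.48. For the interaction the median SE of the members was 0.21 and the highest was 0.66.

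Member counts in the LPS effect in succinate mice were 10 higher and 9 lower. Within the class of 7 they were 3 and 0, with only the libraries compared 5 were lower, and with single libraries left out 7 to 14 were higher and 5 to 9 lower. In control mice 6 were higher, 3 with library size alone, 3 within the class of 7 and 3 to 12 with single libraries left out. The count of 12 came without replicate 1 with LPS, and that of 3 without replicate 2 or 3 with LPS or replicate 2 without LPS. In succinate mice the count of 5 lower came without replicate 1 or 2 with LPS or replicate 3 without LPS. The causes were not tested.

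Over all tested genes, the class of 7 gave 1143 higher and 1077 lower in the LPS effect in succinate mice, and 1211 and 887 in control mice. For succinate with LPS, 0 genes were higher and 9 lower. No filter gave 121 and 573, DESeq2 22 and 315, the replicate block 5 and 72, and the class covariate 19 and 171. The class of 7 gave 1 and 0. The stricter filter gave 30 lower, limma-voom 34, library size alone 0 and only the libraries compared 0. Single libraries left out gave 0 to 16 higher and 0 to 181 lower. Without LPS, no filter gave 34 higher and 38 lower, and DESeq2 1 higher. For the interaction, no filter gave 22 higher and 49 lower, and DESeq2 3 lower. Library size alone moved the median of all genes to 0.11 for succinate with LPS and to -0.09 for LPS in control mice.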
